A study of Mus musculus with 17 samples.

Results

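The comparison described here set 5 kidneys labelled CCN2 KO IRI against 4 kidneys labelled WT IRI, which are 9 of the 17 kidneys of the series. The kidneys were taken by their labels and titles, 33C1 to 33C4 for WT IRI and 33D2 to 33D6 for CCN2 KO IRI. All genes of the deposited table were considered, and 12608 of 38293 were tested because they exceeded 1 RPKM (reads scaled to gene length and library size) in at least 4 of the 17 kidneys. Both groups were C57Bl6/J males aged 12 to 14 weeks that carried CCN2 Flox/Flox alleles and a ROSA26CreERT2 transgene, a Cre recombinase that is expressed from the ROSA26 locus in all cells and enters the nucleus when tamoxifen binds it. CCN2 KO mice received 4 injections of tamoxifen and WT mice 4 of corn oil, so the drug and the loss of CCN2 cannot be told apart. After 14 days without injections both renal pedicles were clamped for 25 min, and kidney cortex was taken 4 h after reperfusion. The shams, 4 WT and 4 CCN2 KO, had surgery without clamping. Kidneys of both IRI groups carry titles that begin with 33. Whether a floxed exon was lost in every cell type of a kidney was not measured, and because these are whole cortex samples, fewer cells of a type and less RNA per cell cannot be told apart.

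CCN2, encoded by Ctgf, is a secreted matricellular protein with binding sites for integrins, growth factors and heparan sulphate, and tubular cells make it soon after injury. In the hours after reperfusion the renal tubule switches on immediate early genes, which need no new protein synthesis to be transcribed, together with genes of NF-kB, the p53 response and the integrated stress response, which slows translation. At the same time injured tubules lose transcripts of their specialized transporters.

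Values are log2 RPKM, quantile-normalized by the authors, with a floor of −3.32 (an RPKM of 0.1 or less). They are given below in the order of the kidney titles, and read totals are unknown. Across the tested genes, pairs of WT IRI kidneys correlated at 0.944 to 0.957 (Pearson r), pairs of CCN2 KO IRI kidneys at 0.930 to 0.961 and pairs from different groups at 0.895 to 0.952. Ctgf itself was 4.95, 5.02, 4.41 and 3.92 in WT IRI and 5.04, 3.75, 4.16, 4.33 and 3.86 in CCN2 KO IRI, and the groups overlapped (log2 difference −0.35, exact permutation over the kidneys, p = 0.294). The table holds 1 value per gene, so the recombined part of Ctgf could not be read apart from the rest. By qPCR the study reported a large reduction of this transcript in CCN2 KO kidneys, after sham surgery and after IRI. Gt(ROSA)26Sor, the noncoding transcript of the locus that carries the Cre transgene in both groups, was 3.44, 2.72, 3.12 and 3.62 in WT IRI and 2.07, 2.43, 1.43, 2.10 and 1.69 in CCN2 KO IRI. Every CCN2 KO IRI kidney lay below every WT IRI kidney, with a log2 difference of −1.28 (two-sided exact permutation, p = 0.00794, the smallest possible with 4 against 5 kidneys). The sham means of this transcript were 1.91 for WT and 1.92 for CCN2 KO (exact permutation test, p = 1), close to the CCN2 KO IRI mean of 1.94.

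Of the 12608 genes, 907 (7.19%) were higher and 639 (5.07%) lower in CCN2 KO IRI than in WT IRI at an adjusted p under 0.05, together 1546 (12.3%). The 2 groups did not overlap for 17.3% of genes, 1270 with the CCN2 KO IRI kidneys on top and 913 with the WT IRI kidneys on top. Most differences were small: 215 called genes differed by more than 1 on the log2 scale and 26 by more than 2. The median over all genes was 0.02, and the quartiles −0.22 and 0.25. The number of calls rested on single kidneys, since it was 351 without 33C4, 599 without 33C3, 749 without 33D6, 861 without 33D4 and 942 without 33C1. For the gene groups below, the counts without a kidney are given for the direction with more calls, where it moved the count by more than 1.5 times.

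Among the 30 coding genes with the lowest p-values, 11 were lower and 19 higher in CCN2 KO IRI, and in all 30 the groups were apart. These 30 were chosen by p in this same comparison, so separate groups in them are no added support. The lower ones are led by genes of rapid stress signalling. Rap2b, a small GTPase of the RAS family on chromosome 3 of GRCm38 (61361638 to 61368430), was 3.34, 3.17, 3.22 and 3.56 in WT IRI and 1.19, 0.66, 1.81, 1.13 and −0.11 in CCN2 KO IRI, a log2 difference of −2.39 ± 0.28 (SE, adjusted p = 0.000888). Ier2, an immediate early nuclear protein, was 5.13, 4.93, 5.49 and 5.50 in WT IRI and 3.53, 4.02, 3.35, 3.65 and 2.48 in CCN2 KO IRI, a log2 difference of −1.86 ± 0.23 (SE, adjusted p = 0.000908). In both genes 33D6 was the lowest kidney and no CCN2 KO IRI kidney reached the lowest WT IRI kidney.

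Btg1, which recruits the CCR4-NOT deadenylase to messenger RNA, was 4.78, 4.76, 4.81 and 4.97 in WT IRI and 3.38, 3.67, 3.17, 3.68 and 2.30 in CCN2 KO IRI, a log2 difference of −1.59 ± 0.21 (SE, adjusted p = 0.000994). Cebpb, a bZIP transcription factor of acute phase genes, was 5.95, 5.01, 5.60 and 5.85 in WT IRI and 4.15, 3.99, 3.61, 4.22 and 2.77 in CCN2 KO IRI, a log2 difference of −1.85 ± 0.28 (SE, adjusted p = 0.00245). Relb, the partner of NF-kB p52 in the noncanonical pathway, was 3.47, 3.29, 3.17 and 3.31 in WT IRI and 1.96, 2.37, 1.85, 1.94 and 1.59 in CCN2 KO IRI, a log2 difference of −1.37 ± 0.21 (SE, adjusted p = 0.00245). In all 3 genes the highest CCN2 KO IRI kidney lay below the lowest WT IRI kidney, and 33D6 was again the lowest.

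Several of the lower genes act in membranes. Vmp1 and Tmem41b, the endoplasmic reticulum lipid scramblases needed for autophagosomes and lipoproteins, differed by −1.05 (adjusted p = 0.00182) and −0.79 (adjusted p = 0.00222). Vmp1 was 6.43, 6.13, 6.36 and 6.63 in WT IRI and 5.57, 5.60, 5.35, 5.45 and 4.71 in CCN2 KO IRI. Tmem41b was 2.95, 2.87, 2.86 and 3.09 in WT IRI and 2.28, 2.15, 2.33, 2.25 and 1.76 in CCN2 KO IRI. Rhbdf2 encodes iRhom2, which carries the sheddase ADAM17 to the cell surface, and it was 3.41, 3.38, 3.17 and 3.53 in WT IRI and 2.81, 2.62, 2.12, 2.30 and 1.96 in CCN2 KO IRI, a log2 difference of −1.01 ± 0.15 (SE, adjusted p = 0.00267). Tmem55b, a lysosomal phosphoinositide phosphatase, was 3.37, 3.13, 3.31 and 3.32 in WT IRI and 2.80, 2.73, 2.76, 2.77 and 2.69 in CCN2 KO IRI, a log2 difference of −0.53 ± 0.07 (SE, adjusted p = 0.00127), a small difference between tightly spaced groups. The remaining lower genes of the 30 were Coq10b (−0.93, adjusted p = 0.0026), whose product binds coenzyme Q, and Sec11a (−0.57, adjusted p = 0.00266), the catalytic subunit of signal peptidase.

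The higher genes of the 30 include several of the tubule's own enzymes, channels and transporters. Irgm2, an interferon-inducible GTPase on chromosome 11 of GRCm38 (58199618 to 58222782), had the lowest p-value of all and was 1.02, 1.07, 0.88 and 1.05 in WT IRI and 1.88, 2.10, 2.19, 1.83 and 2.04 in CCN2 KO IRI, a log2 difference of 1.003 ± 0.11 (SE, adjusted p = 0.000513). Its sham means were 2.05 in WT and 1.98 in CCN2 KO, near the CCN2 KO IRI mean of 2.01 and above the WT IRI mean of 1.01. Slc27a1, a fatty acid transporter with acyl-CoA synthetase activity, was 3.67, 3.61, 3.55 and 3.50 in WT IRI and 4.49, 4.30, 4.30, 4.18 and 4.27 in CCN2 KO IRI, a log2 difference of 0.73 ± 0.08 (SE, adjusted p = 0.000513). Gpam, which begins glycerolipid synthesis on the mitochondrial outer membrane, was 2.57, 2.87, 2.35 and 2.35 in WT IRI and 4.11, 3.77, 4.13, 3.72 and 4.49 in CCN2 KO IRI, a log2 difference of 1.51 ± 0.19 (SE, adjusted p = 0.000908).

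Bsnd encodes barttin, the subunit that chloride channels of the thick ascending limb and inner ear require. It was 2.50, 2.93, 2.64 and 2.10 in WT IRI and 3.91, 4.09, 4.34, 3.53 and 4.67 in CCN2 KO IRI, a log2 difference of 1.57 ± 0.21 (SE, adjusted p = 0.00128). Slc23a1, the apical vitamin C transporter, was 4.95, 5.15, 5.07 and 4.91 in WT IRI and 5.61, 5.78, 5.99, 5.72 and 6.03 in CCN2 KO IRI, a log2 difference of 0.81 ± 0.11 (SE, adjusted p = 0.00117). Ccnd1, cyclin D1, was 4.26, 4.24, 4.16 and 3.44 in WT IRI and 5.84, 5.17, 5.91, 5.56 and 6.29 in CCN2 KO IRI, a log2 difference of 1.73 ± 0.23 (SE, adjusted p = 0.000994). Of these, WT IRI kidney 33C4 was the lowest of all 9 in Bsnd, Slc23a1 and Ccnd1.

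Genes of cell shape and adhesion were also among the 30. Plxnb2, a semaphorin receptor, was 5.01, 5.28, 5.08 and 4.88 in WT IRI and 5.72, 5.69, 5.77, 5.73 and 6.09 in CCN2 KO IRI, a log2 difference of 0.74 ± 0.10 (SE, adjusted p = 0.00108). Tgm2, the enzyme that crosslinks extracellular proteins, was 5.39, 5.65, 5.32 and 5.02 in WT IRI and 6.39, 5.92, 6.23, 6.33 and 6.53 in CCN2 KO IRI, a log2 difference of 0.94 ± 0.13 (SE, adjusted p = 0.00151). The related adaptors Kank1 and Kank2, which bind talin at the rim of focal adhesions, differed by 0.77 (adjusted p = 0.00266) and 1.05 (adjusted p = 0.00182). Kank2 was 1.71, 1.52, 1.28 and 0.96 in WT IRI and 2.51, 2.06, 2.41, 2.52 and 2.57 in CCN2 KO IRI. The remaining 9 higher genes of the 30 were Zc3h4, Klhdc7a, Etnk1, Stard8, Them6, Vipas39, BC034090, Dctn1 and Jarid2, with log2 differences from 0.55 (Vipas39) to 1.87 (Klhdc7a).

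**Figure D1:**
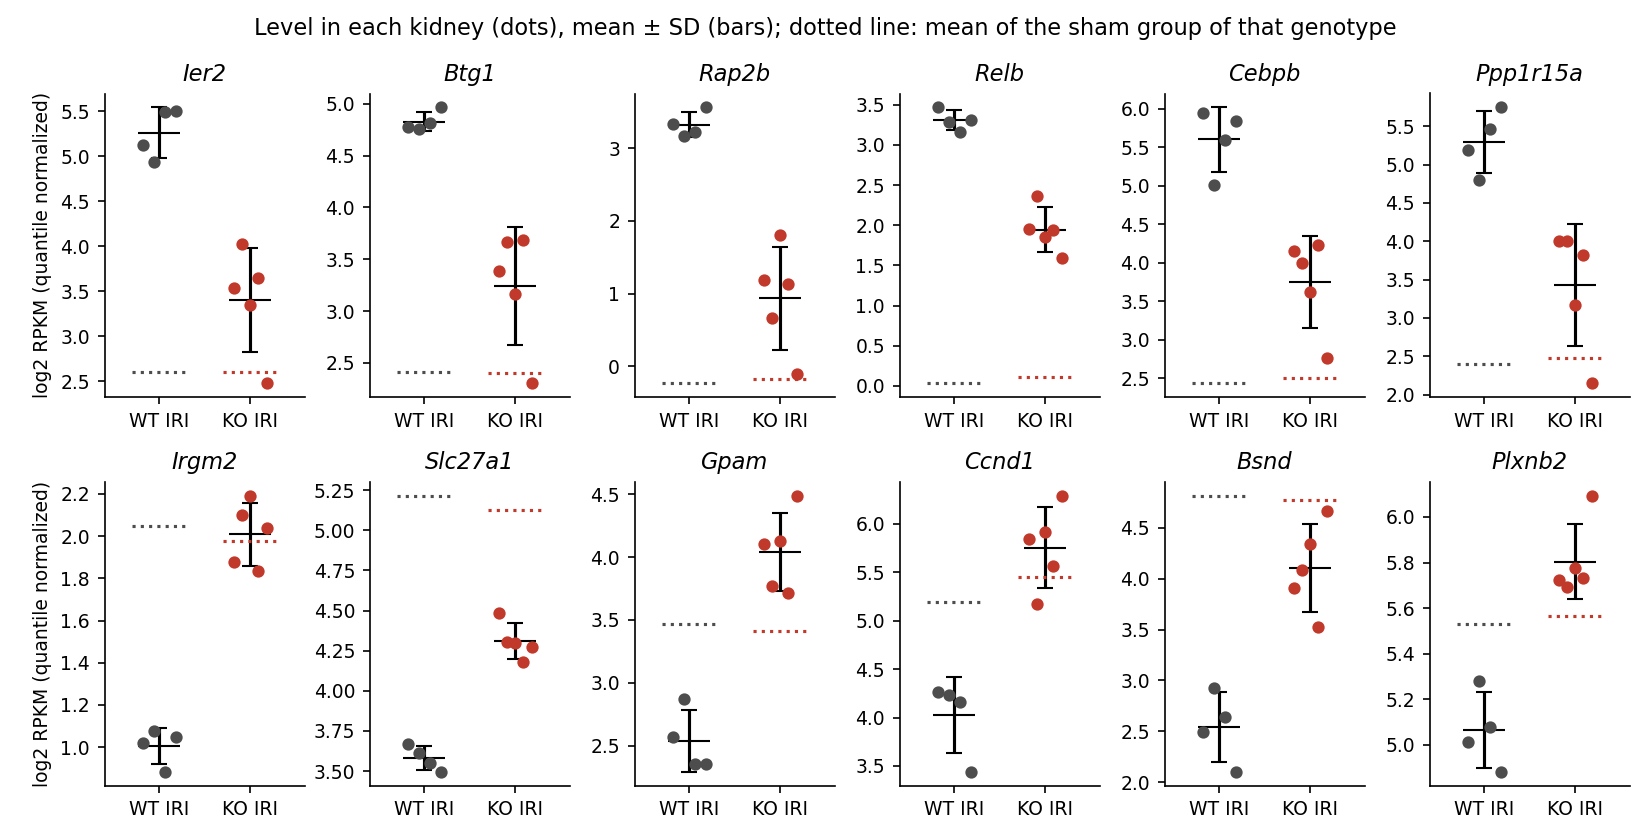
The deposited log2 RPKM of 12 genes is plotted for each kidney as a dot, with WT IRI (n = 4) in grey and CCN2 KO IRI (n = 5) in red, bars for the mean ± SD and dotted lines for the sham mean of the same label. The genes were picked from those of low p in this comparison, and the groups are apart in every panel. In Irgm2 the CCN2 KO IRI mean of 2.01 lies at the sham level of 1.98.

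Transcript length moved with the comparison, and this touches every gene group below. The median called-lower coding gene had 6 exons and a transcript of 1852.5 bases, the median called-higher gene 12 exons and 4117 bases, and the median gene not called 9 exons and 2854.5 bases. Coding genes were divided into 5 classes of equal number by transcript length. In the shortest class (102 to 1631 bases) 1.87% were called higher and 12.5% lower, and in the longest class (4793 bases or more) 14.8% and 2.39%. Within each kidney, the median deviation of the longest class from the gene means minus that of the shortest class was 0.02, 0.06, −0.11 and −0.09 in WT IRI and 0.30, 0.20, 0.31, 0.24 and 0.34 in CCN2 KO IRI. The groups did not overlap (difference 0.31, two-sided exact permutation test, p = 0.00794), and the sham groups differed by 0.12 (p = 0.343). RNA integrity was not among the values used, and whether it took part in this tilt was not tested.

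For a second reading chosen after the length tilt was seen, the trend with transcript length was subtracted in each kidney for the 11487 coding genes that have a length. Calls then numbered 1172, of which 568 were higher and 604 lower, against 973 higher and 661 lower for the same genes as deposited. Of these calls 942 were shared between the readings in the same direction. The number of higher calls, which exceeded the lower calls as deposited, fell below them with the trend removed. In the 3′ untranslated region the heptamer TATTTAT, an element of many unstable messenger RNAs, was present in 26.4% of lower genes, 28.1% of higher genes and 26.7% of all coding genes.

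**Figure D2:**
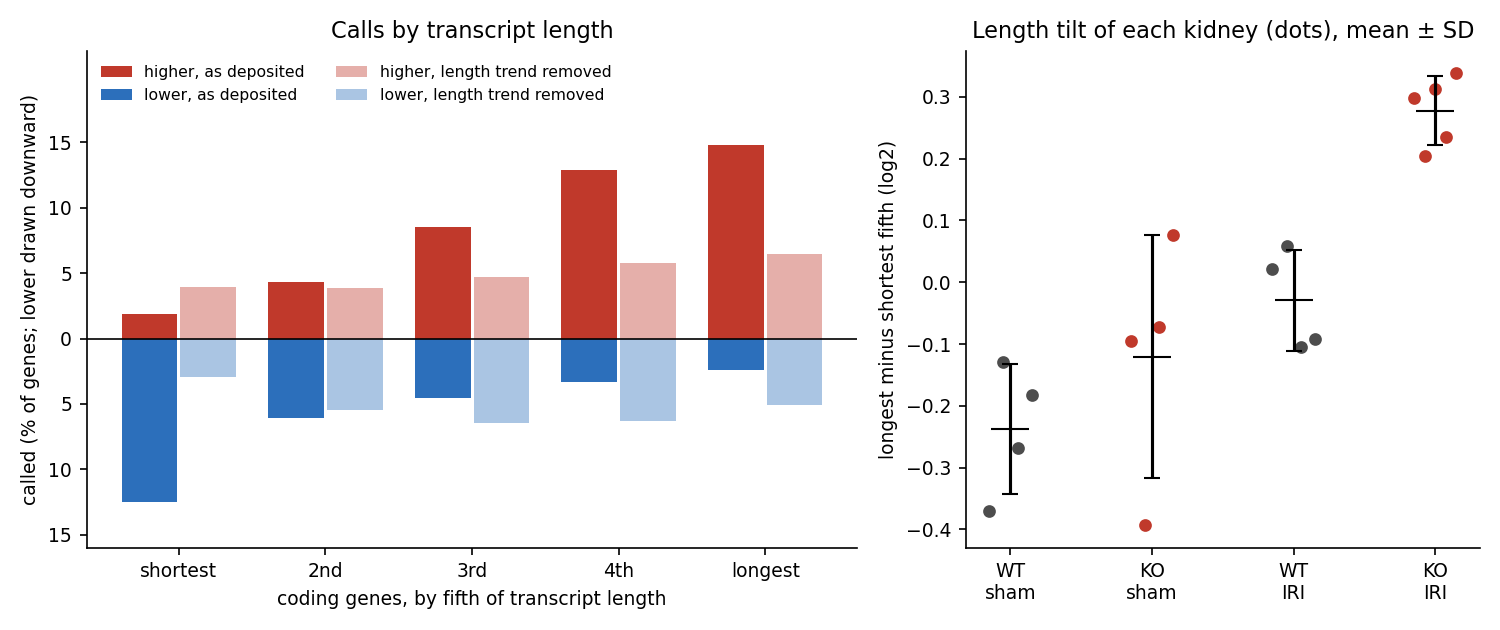
The left panel plots the percentage of coding genes called higher (upward) and lower (downward) in 5 classes of transcript length, as deposited (dark) and with the length trend removed (light). Both come from fits of the coding genes with a length alone. The right panel plots the length tilt in log2 units, 1 dot per kidney with mean ± SD, where the 5 CCN2 KO IRI kidneys lie from 0.20 to 0.34 and the 4 WT IRI kidneys from −0.11 to 0.06.

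Immediate early transcription factors were lower as a group. Of 26 tested, 14 were called lower and 0 higher, at a median log2 difference of −1.21 against 0.02 over all genes. Junb, which pairs with FOS proteins to form AP-1, was 5.33, 5.40, 5.73 and 5.87 in WT IRI and 4.26, 4.55, 4.23, 3.96 and 3.25 in CCN2 KO IRI, a log2 difference of −1.53 ± 0.27 (SE, adjusted p = 0.00417). Jund, its relative, was 6.71, 6.38, 6.82 and 6.90 in WT IRI and 5.39, 6.06, 5.36, 5.14 and 4.79 in CCN2 KO IRI, a log2 difference of −1.35 ± 0.24 (SE, adjusted p = 0.00417). Egr1, a zinc finger factor that serum and injury induce, was 4.74, 4.55, 4.91 and 5.17 in WT IRI and 3.48, 3.15, 3.93, 3.19 and 1.88 in CCN2 KO IRI, a log2 difference of −1.71 ± 0.34 (SE, adjusted p = 0.0082). The groups were apart for 14 of the 26, all with the WT IRI kidneys on top, against 17.3% of all genes in either direction. Kidney 33D6 was the lowest in Junb, Jund and Egr1.

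Btg2, a p53-responsive relative of Btg1 that also binds deadenylases, was 5.28, 4.97, 5.30 and 5.45 in WT IRI and 4.61, 3.62, 3.59, 3.81 and 2.89 in CCN2 KO IRI, a log2 difference of −1.55 ± 0.28 (SE, adjusted p = 0.00476). Maff, a small MAF protein, was 5.81, 5.08, 5.81 and 6.24 in WT IRI and 3.79, 4.42, 3.47, 3.68 and 1.47 in CCN2 KO IRI, a log2 difference of −2.37 ± 0.48 (SE, adjusted p = 0.00867). The median deviation of the 26 factors from their means over the 17 kidneys was 1.44, 1.31, 1.52 and 1.71 in WT IRI and 0.85, 0.64, 0.43, 0.37 and −0.39 in CCN2 KO IRI, while every sham kidney lay at −0.61 or lower. For the 26 factors, 14 were called lower and 0 higher with the length trend removed, and lower calls numbered 7 without 33C4 and 8 without 33C3.

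Genes that restrain MAP kinases, many of them induced by the kinases they act on, were lower in part. Of 18 MAP kinase phosphatases and feedback inhibitors, 4 were lower and 1 higher (median −0.45). Dusp5, a nuclear phosphatase of ERK, was 5.18, 4.82, 5.16 and 5.63 in WT IRI and 3.65, 4.00, 3.89, 3.17 and 1.39 in CCN2 KO IRI, a log2 difference of −1.98 ± 0.41 (SE, adjusted p = 0.00889). Spry2, an inhibitor of receptor tyrosine kinase signalling, was 3.89, 3.63, 3.51 and 4.05 in WT IRI and 3.05, 2.77, 3.26, 3.11 and 2.65 in CCN2 KO IRI, a log2 difference of −0.81 ± 0.14 (SE, adjusted p = 0.00451). Rasa1, a RAS GTPase-activating protein, was the single higher member (log2 difference 0.39, adjusted p = 0.0431). For these 18 genes, 6 were called lower and 0 higher with the length trend removed.

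The EGF receptor's ligands divided. Of 13 genes of this family, 3 were lower and 2 higher. Hbegf, a ligand shed from injured tubule cells, was 6.18, 5.56, 6.03 and 6.64 in WT IRI and 5.10, 5.09, 4.55, 5.00 and 3.66 in CCN2 KO IRI, a log2 difference of −1.42 ± 0.26 (SE, adjusted p = 0.0049). Areg, amphiregulin, was 3.74, 2.83, 3.52 and 3.54 in WT IRI and 2.67, 1.01, 0.19, 2.74 and −3.32 in CCN2 KO IRI, a log2 difference of −2.75 ± 0.86 (SE, adjusted p = 0.0465), with 33D6 at the floor. The Areg call held in only 9 of 20 alternative settings, with adjusted p up to 0.126. It was lost with the IRI groups alone, with the length trend removed and without any 1 of 33C1, 33C2, 33C3, 33C4, 33D3 and 33D4. Egf, which the distal nephron makes constitutively, ran the other way at 5.88, 6.03, 5.67 and 4.72 in WT IRI and 7.68, 6.92, 7.99, 6.86 and 8.03 in CCN2 KO IRI, a log2 difference of 1.92 ± 0.37 (SE, adjusted p = 0.00707). Erbb2, a coreceptor, was 3.11, 3.36, 3.33 and 3.21 in WT IRI and 3.93, 3.62, 4.45, 3.96 and 4.28 in CCN2 KO IRI, a log2 difference of 0.79 ± 0.15 (SE, adjusted p = 0.00663). The groups were apart for all 4. For the 13 genes, 2 were called lower and 2 higher with the length trend removed.

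NF-kB genes were lower: 9 of 25 subunits, inhibitors and activators were called lower and 0 higher (median −0.32). Nfkbia, the inhibitor that NF-kB itself induces, was 4.83, 5.01, 4.86 and 4.97 in WT IRI and 4.45, 4.23, 4.53, 4.17 and 4.10 in CCN2 KO IRI, a log2 difference of −0.62 ± 0.12 (SE, adjusted p = 0.00807). Rela, the p65 subunit, was 5.70, 5.63, 5.54 and 5.61 in WT IRI and 5.06, 5.40, 4.78, 4.94 and 4.37 in CCN2 KO IRI, a log2 difference of −0.71 ± 0.15 (SE, adjusted p = 0.00881). Birc3, an inhibitor of apoptosis that acts at the TNF receptor, was 2.07, 2.10, 2.02 and 1.94 in WT IRI and 1.57, 1.04, 1.51, 1.26 and 1.26 in CCN2 KO IRI, a log2 difference of −0.71 ± 0.14 (SE, adjusted p = 0.00881). For the NF-kB list, 13 were called lower and 0 higher with the length trend removed, and lower calls numbered 4 without 33C1, 33C4 or 33D6 and 5 without 33D5.

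Among 16 chemokines and interleukins 4 were lower and 1 higher. Cxcl1, a neutrophil attractant, was 7.01, 6.20, 5.59 and 6.64 in WT IRI and 3.92, 4.08, 4.70, 3.90 and 1.78 in CCN2 KO IRI, a log2 difference of −2.68 ± 0.67 (SE, adjusted p = 0.0183). Cxcl2, its close relative, was 0.95, 1.05, 0.96 and 0.96 in WT IRI and −2.44, −3.32, −0.40, 0.05 and −3.32 in CCN2 KO IRI, a log2 difference of −2.87 ± 0.75 (SE, adjusted p = 0.0233), a difference that the floor in 33D3 and 33D6 limits. Cxcl10, an interferon-induced ligand of CXCR3, was 2.99, 2.95, 3.27 and 3.10 in WT IRI and 1.69, 0.74, 1.82, 0.98 and 0.99 in CCN2 KO IRI, a log2 difference of −1.84 ± 0.38 (SE, adjusted p = 0.00881). Cxcl12, the stromal ligand of CXCR4, was the higher member at 1.56, 1.81, 1.80 and 1.65 in WT IRI and 2.34, 2.59, 2.40, 2.16 and 2.71 in CCN2 KO IRI, a log2 difference of 0.74 ± 0.12 (SE, adjusted p = 0.00349). For chemokines and interleukins, 5 were called lower and 1 higher with the length trend removed, and lower calls numbered 2 without 33C1 or 33C4. The summed RPKM of 15 neutrophil marker genes was 14.97 to 22.4 in WT IRI and 9.45 to 18.6 in CCN2 KO IRI, and 2 of the 15 were at the floor in all 17 kidneys. Its part in the chemokine values was not tested, and of the 4 neutrophil markers that passed the filter 0 were called (0 at an unadjusted p under 0.05).

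Of 32 p53 targets, 10 were lower and 0 higher (median −0.16). Gdf15, a secreted stress cytokine, was 6.63, 6.24, 6.76 and 7.19 in WT IRI and 5.29, 5.56, 3.32, 4.48 and 2.61 in CCN2 KO IRI, a log2 difference of −2.45 ± 0.50 (SE, adjusted p = 0.00858). Gadd45a, which acts in repair and growth arrest, was 6.98, 6.80, 7.61 and 7.64 in WT IRI and 5.77, 6.17, 5.10, 6.31 and 3.76 in CCN2 KO IRI, a log2 difference of −1.84 ± 0.38 (SE, adjusted p = 0.00933). Mdm2, the ubiquitin ligase of p53, was 4.83, 4.42, 4.52 and 4.72 in WT IRI and 3.94, 4.26, 3.94, 4.01 and 3.45 in CCN2 KO IRI, a log2 difference of −0.70 ± 0.14 (SE, adjusted p = 0.00756). In these 3 genes every CCN2 KO IRI kidney lay below every WT IRI kidney, and 33D6 was the lowest. Pmaip1, the BH3-only protein NOXA, was 4.20, 3.43, 4.45 and 4.53 in WT IRI and 3.43, 3.33, 2.23, 3.34 and 1.93 in CCN2 KO IRI, a log2 difference of −1.31 ± 0.29 (SE, adjusted p = 0.0128). Rap2b and Btg2, given above, are also on this list, and Gadd45a is a target of ATF4 as well as of p53. For p53 targets, 10 were called lower and 0 higher with the length trend removed, and lower calls numbered 5 without 33C4.

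The integrated stress response list held 6 lower and 0 higher genes of 27 (median −0.41). Ppp1r15a, the phosphatase subunit GADD34 that reverses eIF2 alpha phosphorylation, was 5.18, 4.80, 5.46 and 5.75 in WT IRI and 4.01, 4.01, 3.17, 3.82 and 2.15 in CCN2 KO IRI, a log2 difference of −1.87 ± 0.31 (SE, adjusted p = 0.00404). Atf4, the factor that directs the response, was 8.25, 7.96, 8.14 and 8.58 in WT IRI and 7.36, 7.80, 6.81, 7.69 and 6.18 in CCN2 KO IRI, a log2 difference of −1.07 ± 0.26 (SE, adjusted p = 0.0175). Ddit3, CHOP, was 6.12, 5.89, 6.48 and 6.17 in WT IRI and 4.93, 5.49, 3.48, 5.33 and 3.19 in CCN2 KO IRI, a log2 difference of −1.68 ± 0.43 (SE, adjusted p = 0.0205). Their CCN2 KO IRI values were spread widely, with 33D4 and 33D6 the lowest kidneys in all 3. Chac1, which degrades glutathione, was 6.41, 6.06, 6.33 and 6.47 in WT IRI and 4.73, 5.80, 2.29, 4.64 and 0.99 in CCN2 KO IRI, a log2 difference of −2.63 ± 0.74 (SE, adjusted p = 0.03). For the integrated stress response, 9 were called lower and 0 higher with the length trend removed, and lower calls numbered 1 without 33C4, 2 without 33C3 and 3 without 33D6 or 33D4. The 20 cytosolic tRNA synthetases, some of which ATF4 also drives, had 0 called by limma, with 1 higher and 1 lower at an unadjusted p under 0.05 and 1 higher and 1 lower with sample weights.

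Of 48 genes of the endoplasmic reticulum unfolded protein response, 8 were lower and 0 higher (median −0.09). Xbp1, which IRE1 splices, was 6.70, 6.90, 6.59 and 6.95 in WT IRI and 6.39, 6.32, 5.97, 6.07 and 5.34 in CCN2 KO IRI, a log2 difference of −0.77 ± 0.22 (SE, adjusted p = 0.0302). Dnajb9, a lumenal cochaperone, was 6.46, 6.49, 6.22 and 6.53 in WT IRI and 6.00, 5.98, 5.76, 5.71 and 5.05 in CCN2 KO IRI, a log2 difference of −0.73 ± 0.17 (SE, adjusted p = 0.0138). For these 48 genes, 3 were called lower and 0 higher with the length trend removed, and lower calls numbered 0 without 33C4, 2 without 33C3, 3 without 33D6 and 5 without 33D2 or 33D4. The 30 cytosolic heat shock chaperones had 0 called by limma (1 higher and 4 lower at an unadjusted p under 0.05, and 3 lower with sample weights), and their median was 0.05, or −0.03 with the length trend removed.

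Messenger RNA decay factors included 6 lower and 2 higher genes of 41. Zc3h12a, the endonuclease Regnase-1, was 2.16, 2.29, 2.01 and 2.21 in WT IRI and 1.37, 1.88, 1.74, 1.46 and 1.23 in CCN2 KO IRI, a log2 difference of −0.63 ± 0.15 (SE, adjusted p = 0.0178). Pnrc1 was 5.20, 4.79, 5.32 and 5.83 in WT IRI and 4.55, 4.11, 4.21, 4.31 and 3.65 in CCN2 KO IRI, a log2 difference of −1.12 ± 0.20 (SE, adjusted p = 0.0052). Cnot1, the scaffold of the CCR4-NOT complex, was higher at 2.81, 2.98, 2.90 and 2.76 in WT IRI and 3.18, 3.15, 3.29, 3.02 and 3.33 in CCN2 KO IRI, a log2 difference of 0.33 ± 0.08 (SE, adjusted p = 0.0204). For decay factors, 6 were called lower and 1 higher with the length trend removed, and lower calls numbered 3 without 33C4.

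Promoter sequence was examined for the called genes, from RefSeq windows of 250 bases before to 50 bases after the gene start on GRCm38.p6. Of 11493 tested coding genes 9215 were matched, among them 487 called lower and 685 called higher. The cAMP response element TGACGTCA, which reads the same on both strands and is bound by CREB and ATF family factors, was present in 6.16% of the lower, 2.48% of the higher and 3.26% of all tested windows, and in 1.79% of all 32851 windows of the table. The TATA box TATAAA, searched on both strands, was present in 12.1%, 6.86% and 7.06%, and in 13.6% of the table. The AP-1 element TGANTCA was present in 6.16%, 4.09% and 4.69%, and in 7.81% of the table. Both strands were also searched for the NF-kB element GGGNN followed by TTTCC, with shares of 2.46%, 1.31% and 1.51%, for the CArG box of serum response factor, with 1.03%, 0.876% and 1.26%, and for CCAAT, with 37.2%, 39.6% and 38.1%. TGACGTCA and TGANTCA cannot overlap each other, while a CArG box can contain TATAAA or begin with CCAAT. A match is a string in a window and not a bound site.

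The 250 bases before the start are printed for 4 lower genes that hold TGACGTCA, which were chosen after the motif shares were seen as those of lowest p, and for Btg1, which holds the lowest p of the lower genes with TATAAA within these bases. Capitals mark TGACGTCA in the first 4 sequences, and in Btg1 TATAAA and CCAAT, the latter on the opposite strand and so printed as ATTGG.
Ppp1r15a (chr7:45526269-45526518, minus strand, TGACGTCA): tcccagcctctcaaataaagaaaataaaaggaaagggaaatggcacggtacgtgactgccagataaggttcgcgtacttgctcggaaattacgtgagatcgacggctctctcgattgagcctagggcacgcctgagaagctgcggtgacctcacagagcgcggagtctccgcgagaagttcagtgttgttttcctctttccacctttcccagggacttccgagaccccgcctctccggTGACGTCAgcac
Btg2 (chr1:134079156-134079405, minus strand, TGACGTCA): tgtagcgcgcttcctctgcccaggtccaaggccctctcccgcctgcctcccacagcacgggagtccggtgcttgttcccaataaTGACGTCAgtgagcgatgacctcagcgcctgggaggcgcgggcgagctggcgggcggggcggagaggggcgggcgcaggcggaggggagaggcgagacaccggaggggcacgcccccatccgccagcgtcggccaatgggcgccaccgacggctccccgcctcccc
Znrd1 (chr17:36958526-36958775, minus strand, TGACGTCA): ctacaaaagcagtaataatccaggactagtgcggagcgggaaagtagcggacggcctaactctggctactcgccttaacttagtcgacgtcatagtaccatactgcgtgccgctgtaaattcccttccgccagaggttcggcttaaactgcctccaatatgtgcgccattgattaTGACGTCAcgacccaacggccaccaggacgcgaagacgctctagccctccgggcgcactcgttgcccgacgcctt
Epha2 (chr4:141300971-141301220, plus strand, TGACGTCA): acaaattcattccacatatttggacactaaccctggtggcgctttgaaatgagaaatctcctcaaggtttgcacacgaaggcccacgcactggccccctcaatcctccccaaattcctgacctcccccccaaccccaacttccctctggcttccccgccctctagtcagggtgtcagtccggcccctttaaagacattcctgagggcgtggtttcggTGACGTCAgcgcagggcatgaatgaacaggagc
Btg1 (chr10:96616751-96617000, plus strand, TATAAA and CCAAT): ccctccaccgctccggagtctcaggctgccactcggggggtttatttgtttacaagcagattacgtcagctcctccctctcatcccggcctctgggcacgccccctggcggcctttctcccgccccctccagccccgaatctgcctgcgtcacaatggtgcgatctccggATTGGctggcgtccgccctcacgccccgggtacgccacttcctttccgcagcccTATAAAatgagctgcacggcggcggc
Znrd1, a subunit of RNA polymerase I, was 3.87, 4.00, 4.32 and 4.25 in WT IRI and 3.50, 3.63, 3.43, 3.48 and 3.51 in CCN2 KO IRI, a log2 difference of −0.60 ± 0.12 (SE, adjusted p = 0.00702). Epha2, an ephrin receptor tyrosine kinase, was 4.27, 3.71, 4.17 and 4.71 in WT IRI and 3.02, 3.27, 2.60, 2.70 and 1.09 in CCN2 KO IRI, a log2 difference of −1.68 ± 0.34 (SE, adjusted p = 0.00819). Ppp1r15a, Btg2 and Btg1 have their values above.

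Thick ascending limb genes were higher: 10 of 23 were called higher and 1 lower, at a median of 0.67. The median difference of CCN2 KO from WT for this list was 0.37 in sham kidneys. Kcnj1, the apical potassium channel ROMK, was 4.37, 4.27, 4.27 and 3.57 in WT IRI and 5.16, 4.70, 5.38, 5.08 and 5.63 in CCN2 KO IRI, a log2 difference of 1.07 ± 0.25 (SE, adjusted p = 0.0142). Sostdc1, a secreted antagonist of BMP and WNT ligands, was 3.41, 3.86, 3.76 and 2.92 in WT IRI and 4.90, 5.18, 5.33, 4.48 and 5.57 in CCN2 KO IRI, a log2 difference of 1.60 ± 0.28 (SE, adjusted p = 0.00417). Tmem72 was 1.62, 1.77, 1.43 and 1.39 in WT IRI and 2.75, 2.65, 2.88, 2.62 and 3.17 in CCN2 KO IRI, a log2 difference of 1.26 ± 0.24 (SE, adjusted p = 0.00699). The groups were apart in these 3 genes, with 33C4 at the bottom of the 9 kidneys in each. Irx3, a homeobox factor, was the lower member at 5.89, 5.83, 5.88 and 5.88 in WT IRI and 4.60, 5.92, 4.21, 4.35 and 3.87 in CCN2 KO IRI, a log2 difference of −1.28 ± 0.29 (SE, adjusted p = 0.0135), with 33D3 above every WT IRI kidney and the other 4 below. The summed RPKM of 24 such genes was 504 to 806 in WT IRI, 978 to 1802 in CCN2 KO IRI, 707 to 1018 in WT sham and 650 to 1789 in CCN2 KO sham. Bsnd and Egf, given above, also belong to this list. For the thick ascending limb, 11 were called higher and 1 lower with the length trend removed, and higher calls numbered 4 without 33C4. Kidney 33C4 had the lowest median of this list.

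The distal convoluted tubule, the next segment, gave 10 higher and 1 lower of 25 (median 0.51). In sham kidneys the median difference of CCN2 KO from WT for this list was 0.26. Wnk1 and Wnk4, kinases that control the thiazide-sensitive cotransporter, were higher by 1.05 ± 0.18 (adjusted p = 0.00417) and 0.76 ± 0.13 (adjusted p = 0.00417). Wnk1 was 3.73, 3.80, 3.69 and 3.41 in WT IRI and 4.85, 4.63, 4.91, 4.28 and 4.88 in CCN2 KO IRI. Kcnj10, a basolateral potassium channel, was 3.23, 3.35, 2.91 and 2.56 in WT IRI and 4.18, 4.00, 4.45, 3.80 and 4.62 in CCN2 KO IRI, a log2 difference of 1.20 ± 0.28 (SE, adjusted p = 0.0152). Tmem52b was 5.50, 5.42, 4.96 and 4.62 in WT IRI and 6.33, 6.03, 6.81, 5.88 and 6.82 in CCN2 KO IRI, a log2 difference of 1.25 ± 0.26 (SE, adjusted p = 0.009). The summed RPKM of the 25 genes was 4781 to 5198 in WT IRI and 4754 to 6831 in CCN2 KO IRI, so the groups overlapped. In shams the sum was 4372 to 5556 in WT and 5556 to 7577 in CCN2 KO. For the distal convoluted tubule, 9 were called higher and 1 lower with the length trend removed, and higher calls numbered 4 without 33C4.

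Transcription factors and nuclear receptors of the tubule included 9 higher and 2 lower genes of 43. Hnf4a, which maintains the proximal tubule programme, was 7.17, 7.51, 7.02 and 6.51 in WT IRI and 7.83, 7.67, 8.04, 8.09 and 8.10 in CCN2 KO IRI, a log2 difference of 0.89 ± 0.16 (SE, adjusted p = 0.00417). Vdr, the vitamin D receptor, was 5.14, 5.42, 5.29 and 4.92 in WT IRI and 5.87, 5.90, 5.86, 5.65 and 6.62 in CCN2 KO IRI, a log2 difference of 0.79 ± 0.16 (SE, adjusted p = 0.009). Lhx1, a LIM homeobox factor of the developing nephron, was 1.38, 1.47, 1.21 and 0.62 in WT IRI and 2.44, 2.15, 2.63, 1.69 and 2.86 in CCN2 KO IRI, a log2 difference of 1.19 ± 0.21 (SE, adjusted p = 0.0044). Esrrb, an orphan nuclear receptor, was 0.44, 0.99, 0.33 and 0.03 in WT IRI and 1.70, 1.62, 1.86, 1.07 and 2.24 in CCN2 KO IRI, a log2 difference of 1.25 ± 0.31 (SE, adjusted p = 0.0175). In all 4 genes 33C4 was the lowest of the 9 kidneys. For these tubule factors, 6 were called higher and 2 lower with the length trend removed, and higher calls numbered 4 without 33C3 or 33C4.

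Of 49 proximal tubule transporters 7 were higher and 0 lower (median 0.25). Slc22a5, the carnitine transporter OCTN2, was 5.47, 5.30, 5.44 and 5.18 in WT IRI and 6.03, 5.74, 5.85, 5.81 and 6.18 in CCN2 KO IRI, a log2 difference of 0.58 ± 0.12 (SE, adjusted p = 0.0096). Slc9a3, the sodium-proton exchanger NHE3, was 1.95, 2.47, 2.46 and 1.64 in WT IRI and 3.03, 2.81, 3.15, 2.83 and 4.12 in CCN2 KO IRI, a log2 difference of 1.06 ± 0.23 (SE, adjusted p = 0.0122). Aqp1, the water channel of this segment and of descending limbs, was 7.09, 7.37, 7.15 and 6.98 in WT IRI and 7.55, 7.62, 7.99, 7.43 and 8.14 in CCN2 KO IRI, a log2 difference of 0.60 ± 0.14 (SE, adjusted p = 0.014). Each of these 3 was lowest in 33C4 and highest in 33D6, and their groups did not overlap. Slc5a1, the glucose transporter SGLT1, was 3.27, 3.37, 3.41 and 3.46 in WT IRI and 4.35, 4.08, 3.97, 3.73 and 4.18 in CCN2 KO IRI, a log2 difference of 0.68 ± 0.15 (SE, adjusted p = 0.0124). The summed RPKM of the 50 listed transporters was 7054 to 8967 in WT IRI and 7791 to 10260 in CCN2 KO IRI, so the groups overlapped in the sum. For proximal tubule transporters, 5 were called higher and 1 lower with the length trend removed, and higher calls numbered 2 without 33C4 and 4 without 33C1, 33C3, 33D4 or 33D6.

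Several lipid enzymes were higher. Of 48 lipid and cholesterol synthesis genes 7 were higher and 1 lower. Of 57 genes of fatty acid uptake and oxidation 4 were higher and 0 lower, a share near the 7.19% over all genes. Cpt1a, which admits fatty acids into mitochondria, was 6.55, 6.66, 6.32 and 6.29 in WT IRI and 7.29, 6.92, 7.23, 6.89 and 7.38 in CCN2 KO IRI, a log2 difference of 0.69 ± 0.16 (SE, adjusted p = 0.014). Dgat2, which completes triglyceride synthesis, was 6.02, 6.28, 5.81 and 5.74 in WT IRI and 6.66, 6.52, 6.50, 6.54 and 6.86 in CCN2 KO IRI, a log2 difference of 0.66 ± 0.15 (SE, adjusted p = 0.014). Scd2, a fatty acid desaturase, was 3.06, 3.06, 2.99 and 2.49 in WT IRI and 3.64, 3.92, 4.28, 3.95 and 4.59 in CCN2 KO IRI, a log2 difference of 1.18 ± 0.28 (SE, adjusted p = 0.0152). Lpin2, a phosphatidate phosphatase, was the lower member at 3.45, 3.41, 3.62 and 4.30 in WT IRI and 2.77, 3.51, 2.82, 2.57 and 2.61 in CCN2 KO IRI, a log2 difference of −0.84 ± 0.19 (SE, adjusted p = 0.0126). For lipid synthesis, 5 were called higher and 1 lower with the length trend removed, and higher calls numbered 1 without 33C4, 3 without 33D6 and 4 without 33C1, 33C3 or 33D4. For fatty acid uptake and oxidation, 3 were called higher and 0 lower with the length trend removed, and higher calls numbered 1 without 33C4, 2 without 33C3, 33D2, 33D4 or 33D6 and 7 without 33D5.

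Genes of the citric acid cycle and of respiratory complexes I and IV were called in opposite directions. Of 26 citric acid cycle genes 7 were higher and 0 lower (median 0.16). For the citric acid cycle, 6 were called higher and 0 lower with the length trend removed, and higher calls numbered 0 without 33C4 or 33D6, 1 without 33C3, 33D2 or 33D4, 2 without 33C1 and 4 without 33D3. Ogdh, a subunit of 2-oxoglutarate dehydrogenase, was 7.10, 7.07, 6.75 and 6.72 in WT IRI and 7.48, 7.32, 7.26, 7.18 and 7.49 in CCN2 KO IRI, a log2 difference of 0.44 ± 0.11 (SE, adjusted p = 0.0216). Cs, citrate synthase, was 6.78, 6.83, 6.64 and 6.66 in WT IRI and 7.05, 7.02, 6.99, 6.92 and 6.97 in CCN2 KO IRI, a log2 difference of 0.26 ± 0.08 (SE, adjusted p = 0.0397). By contrast 12 of 36 complex I subunits were lower and 0 higher (median −0.31), and 4 of 12 complex IV subunits were lower. The other complexes were mixed, with 1 higher and 2 lower of 14 subunits of complexes II and III (median −0.08) and 2 higher and 2 lower of 18 ATP synthase subunits (median −0.30). Ndufb4 was 4.40, 3.70, 4.16 and 4.42 in WT IRI and 3.07, 3.06, 3.33, 2.79 and 3.54 in CCN2 KO IRI, a log2 difference of −1.02 ± 0.20 (SE, adjusted p = 0.00818). Cox7c was 5.44, 4.97, 5.74 and 5.53 in WT IRI and 4.92, 4.39, 4.81, 5.10 and 4.66 in CCN2 KO IRI, a log2 difference of −0.65 ± 0.18 (SE, adjusted p = 0.0284).

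Many of these subunits have short transcripts. For complex I, 4 were called lower and 0 higher with the length trend removed, and lower calls numbered 2 without 33C4, 3 without 33C3, 4 without 33D4 or 33D6, 5 without 33C1 and 7 without 33D2 or 33D3. For complex IV, 0 were called lower and 0 higher with the length trend removed, and lower calls numbered 0 without 33C1, 33C3, 33C4, 33D4 or 33D6 and 2 without 33D3. Complexes II and III had 4 higher and 2 lower with the trend removed, and lower calls numbered 1 without 33C3 or 33C4 and 4 without 33C2. ATP synthase had 3 higher and 1 lower with the trend removed. Its higher calls numbered 0 without 33C3, 33C4, 33D2, 33D4 or 33D6 and 1 without 33C1 or 33D3. Its lower calls numbered 0 without 33C3 or 33C4, 1 without 33C1, 33D4 or 33D6 and 5 without 33C2. Mitochondrial ribosomal proteins had 11 lower and 0 higher of 75, and cytosolic ribosomal proteins 9 lower and 0 higher of 81. For the mitochondrial ribosome, 7 were called lower and 1 higher with the length trend removed, and lower calls numbered 2 without 33C4, 3 without 33C3, 5 without 33D2 and 6 without 33D4 or 33D6. For the cytosolic ribosome, 2 were called lower and 3 higher with the length trend removed, and lower calls numbered 0 without 33C4, 1 without 33C3, 2 without 33C1, 33D2 or 33D6, 4 without 33D4 and 5 without 33D3. The catalytic ATP synthase subunits Atp5a1 and Atp5b were higher by 0.41 (adjusted p = 0.0249) and 0.32 (adjusted p = 0.0472), while the inhibitor Atpif1, a short gene, was lower by 0.61 (adjusted p = 0.0171). Of 21 alternative settings, the Atp5a1 call held in 15 and the Atp5b call in only 11. The Atpif1 call held in 18 and was lost with the length trend removed and without 33C3 or 33C4. Atp5a1 was 8.89, 9.01, 8.69 and 8.75 in WT IRI and 9.33, 9.04, 9.28, 9.30 and 9.25 in CCN2 KO IRI.

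Lysosomal hydrolases were higher in 12 of 51 cases and lower in 0 (median 0.25). Ctsf, a cysteine protease, was 3.86, 4.06, 3.67 and 3.77 in WT IRI and 4.52, 4.33, 4.67, 4.25 and 4.65 in CCN2 KO IRI, a log2 difference of 0.64 ± 0.11 (SE, adjusted p = 0.00417). Hexa, the alpha subunit of hexosaminidase A, was 3.30, 3.30, 3.26 and 2.86 in WT IRI and 4.63, 3.43, 3.78, 3.96 and 3.98 in CCN2 KO IRI, a log2 difference of 0.77 ± 0.19 (SE, adjusted p = 0.0174). Of 49 lysosomal membrane and proton pump genes 8 were higher and 3 lower. Npc1, which exports cholesterol from lysosomes, was one of the lower at 2.88, 2.81, 2.69 and 3.42 in WT IRI and 2.23, 2.21, 2.58, 2.10 and 1.70 in CCN2 KO IRI, a log2 difference of −0.79 ± 0.17 (SE, adjusted p = 0.0103). For hydrolases, 10 were called higher and 0 lower with the length trend removed, and higher calls numbered 2 without 33C4, 6 without 33C3 and 7 without 33D6. For lysosomal membrane and pump genes, 5 were called higher and 1 lower with the length trend removed, and higher calls numbered 3 without 33C3 or 33C4 and 5 without 33C1, 33D2 or 33D6.

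MHC class II genes were higher in 5 of 11 cases and lower in 0 (median 0.87). Cd74, the invariant chain, was 5.40, 5.92, 5.38 and 4.27 in WT IRI and 7.09, 7.28, 6.39, 6.33 and 5.72 in CCN2 KO IRI, a log2 difference of 1.32 ± 0.30 (SE, adjusted p = 0.0137). H2-Aa was 3.68, 4.26, 3.26 and 2.36 in WT IRI and 5.24, 5.26, 4.49, 4.25 and 4.06 in CCN2 KO IRI, a log2 difference of 1.27 ± 0.31 (SE, adjusted p = 0.0181). H2-DMb1, a subunit of the peptide editor, was 1.79, 1.68, 1.44 and 1.56 in WT IRI and 2.85, 2.66, 2.18, 2.21 and 2.52 in CCN2 KO IRI, a log2 difference of 0.87 ± 0.17 (SE, adjusted p = 0.00807). The highest values of these 3 came from 33D2 or 33D3 and the lowest from 33C4 or 33C3. The groups overlapped in Cd74 and H2-Aa, where 33C2 lay above 33D6. They were apart for only 1 of the 11 genes, against 17.3% of all genes. For MHC class II, 7 were called higher and 0 lower with the length trend removed, and higher calls numbered 1 without 33C4 and 3 without 33C3. Of 14 macrophage and monocyte markers 2 were higher and 0 lower, and the summed RPKM of the 26 listed was 68.2 to 99.5 in WT IRI and 80.2 to 168 in CCN2 KO IRI. Folr2, a marker of resident macrophages, was 0.13, −0.15, −3.32 and −0.40 in WT IRI and 1.32, 1.13, 1.11, 0.93 and 1.65 in CCN2 KO IRI, a log2 difference of 2.16 ± 0.50 (SE, adjusted p = 0.0145). C1qa, a complement component they secrete, was 2.24, 3.07, 1.59 and 0.97 in WT IRI and 4.50, 2.94, 3.22, 2.84 and 2.58 in CCN2 KO IRI, a log2 difference of 1.25 ± 0.36 (SE, adjusted p = 0.0353). For macrophage and monocyte markers, 4 were called higher and 1 lower with the length trend removed, and higher calls numbered 1 without 33C1, 33C3, 33C4, 33D2 or 33D4 and 4 without 33D5. The part of these cells in the class II values was not tested.

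Interferon-induced genes had 6 higher and 0 lower of 41 (median 0.33), with Irgm2 the strongest. Cxcl10, which interferon also induces and which was lower (above), is counted with the chemokines and not on this list. Lgals3bp, a secreted galectin ligand, was 3.15, 2.91, 3.14 and 2.67 in WT IRI and 4.39, 3.69, 3.70, 3.32 and 3.74 in CCN2 KO IRI, a log2 difference of 0.80 ± 0.18 (SE, adjusted p = 0.0126). Gbp3, a guanylate-binding protein, was −0.27, 0.27, 0.26 and −0.86 in WT IRI and 0.59, 0.74, 0.59, 0.70 and 0.50 in CCN2 KO IRI, a log2 difference of 0.77 ± 0.21 (SE, adjusted p = 0.0273). The groups were apart for both. For interferon-induced genes, 5 were called higher and 0 lower with the length trend removed, and higher calls numbered 1 without 33C4.

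Stromal and vascular genes were higher. Of 19 collagens 8 were higher and 0 lower (median 0.50). Col3a1, a fibrillar collagen, was 0.15, 0.16, −0.34 and −1.23 in WT IRI and 2.28, 1.42, 1.23, 0.74 and 1.15 in CCN2 KO IRI, a log2 difference of 1.68 ± 0.36 (SE, adjusted p = 0.0106). Col18a1, a collagen of basement membranes, was 5.13, 5.05, 5.01 and 5.05 in WT IRI and 5.61, 5.42, 5.47, 5.62 and 5.36 in CCN2 KO IRI, a log2 difference of 0.43 ± 0.11 (SE, adjusted p = 0.0171). Timp3, a matrix-bound inhibitor of metalloproteinases and of ADAM17, was 7.89, 7.89, 7.81 and 7.51 in WT IRI and 8.57, 8.43, 8.58, 8.63 and 8.97 in CCN2 KO IRI, a log2 difference of 0.86 ± 0.14 (SE, adjusted p = 0.00349). Adamts1, a protease that cleaves versican, was lower at 5.39, 4.95, 5.23 and 5.84 in WT IRI and 4.37, 4.64, 4.25, 4.18 and 3.22 in CCN2 KO IRI, a log2 difference of −1.22 ± 0.26 (SE, adjusted p = 0.0102). For collagens, 3 were called higher and 0 lower with the length trend removed, and higher calls numbered 1 without 33C4, 2 without 33C3, 3 without 33D2 or 33D6, 4 without 33C1 and 5 without 33D4.

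Of 22 endothelial markers 8 were higher and 0 lower (median 0.53). Pecam1, the adhesion molecule CD31, was 2.17, 2.66, 1.81 and 1.25 in WT IRI and 3.21, 3.09, 3.46, 2.75 and 2.83 in CCN2 KO IRI, a log2 difference of 1.09 ± 0.24 (SE, adjusted p = 0.0109). Plvap, a component of fenestral diaphragms, was 3.64, 4.35, 2.78 and 1.83 in WT IRI and 4.84, 4.03, 4.91, 4.36 and 4.51 in CCN2 KO IRI, a log2 difference of 1.38 ± 0.36 (SE, adjusted p = 0.0233). The summed RPKM of 24 endothelial markers was 57.4 to 125.7 in WT IRI and 114 to 152 in CCN2 KO IRI, against 111 to 190 in WT sham. Of 20 fibroblast and pericyte markers 6 were higher and 0 lower, and their sum was 112 to 199 in WT IRI and 145 to 226 in CCN2 KO IRI. For endothelial markers, 6 were called higher and 1 lower with the length trend removed, and higher calls numbered 1 without 33C3 or 33C4, 3 without 33D4 and 4 without 33D2. For fibroblast and pericyte markers, 5 were called higher and 0 lower with the length trend removed, and higher calls numbered 1 without 33C4 and 3 without 33C3, 33D4 or 33D6. The median deviation of the endothelial list from the means over the 17 kidneys was −0.39, 0.00, −0.56 and −1.13 in WT IRI and 0.11, −0.04, 0.33, 0.09 and −0.09 in CCN2 KO IRI.

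**Figure D3:**
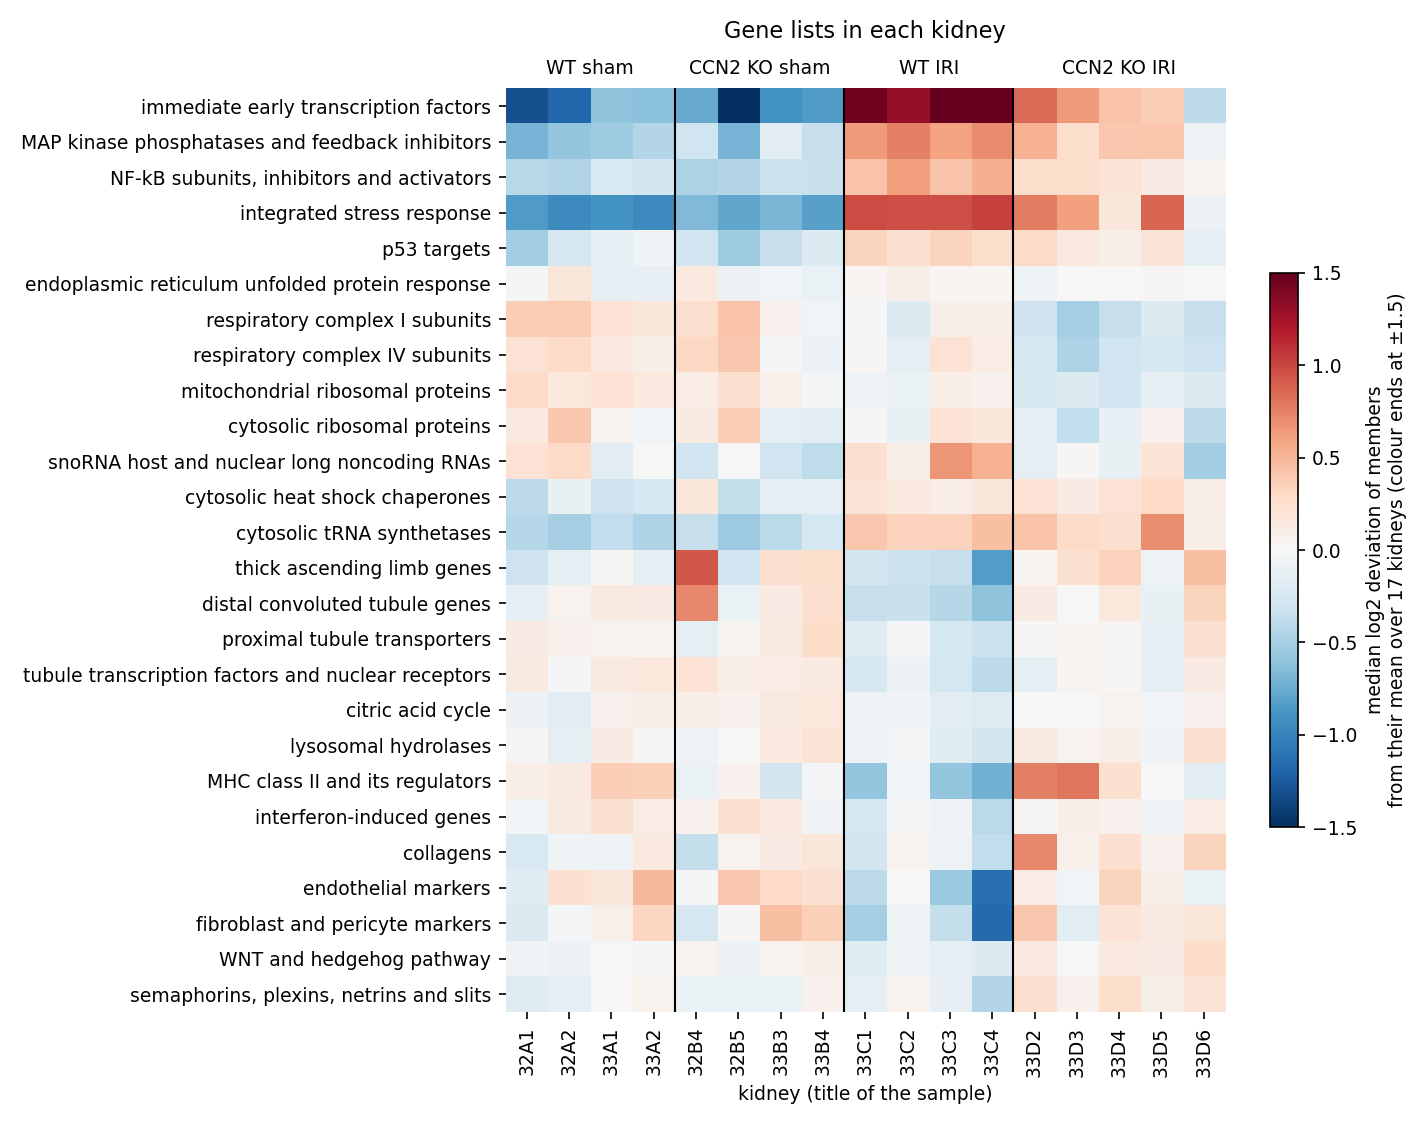
Colour gives the median log2 deviation of each gene list's members from their means over the 17 kidneys, with 1 column per kidney and 1 row per list. Immediate early factors lie at 1.31 to 1.71 in WT IRI and −0.39 to 0.85 in CCN2 KO IRI, and the endothelial list is at −1.13 in 33C4.

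Genes of developmental signalling ran higher, with exceptions. Of 33 WNT and hedgehog genes 9 were higher and 1 lower (median 0.34). Fzd4, a WNT and norrin receptor, was 2.32, 2.78, 2.53 and 2.32 in WT IRI and 3.28, 3.36, 3.66, 3.30 and 3.43 in CCN2 KO IRI, a log2 difference of 0.92 ± 0.17 (SE, adjusted p = 0.00596). Sufu, the inhibitor of GLI factors, was 1.94, 2.26, 2.12 and 1.88 in WT IRI and 2.76, 2.62, 3.05, 2.85 and 3.64 in CCN2 KO IRI, a log2 difference of 0.93 ± 0.16 (SE, adjusted p = 0.00417). Frat2, a GSK3-binding protein, was the lower gene at 0.66, 0.30, 0.72 and 1.31 in WT IRI and −1.85, −1.61, −1.21, −1.70 and −2.03 in CCN2 KO IRI, a log2 difference of −2.43 ± 0.43 (SE, adjusted p = 0.00451), with every CCN2 KO IRI kidney below an RPKM of 1. Of 29 semaphorin, plexin, netrin and slit genes 6 were higher and 0 lower. Nrp1, a coreceptor of semaphorins and VEGF, was 3.74, 3.54, 3.75 and 3.87 in WT IRI and 4.40, 4.20, 4.06, 4.27 and 4.28 in CCN2 KO IRI, a log2 difference of 0.52 ± 0.09 (SE, adjusted p = 0.00417). For WNT and hedgehog genes, 8 were called higher and 3 lower with the length trend removed, and higher calls numbered 4 without 33C3 or 33C4 and 5 without 33D6. For semaphorins and their partners, 3 were called higher and 0 lower with the length trend removed, and higher calls numbered 3 without 33C1, 33C3, 33C4, 33D4 or 33D6.

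Among 32 genes of TGF beta signalling, for which CCN2 is a downstream target, 8 were higher and 2 lower (median 0.17). Thbs1, which can activate latent TGF beta, was 3.16, 3.17, 3.29 and 2.69 in WT IRI and 4.47, 4.01, 4.31, 3.70 and 4.07 in CCN2 KO IRI, a log2 difference of 1.03 ± 0.17 (SE, adjusted p = 0.00389). Ski, a corepressor of SMAD proteins, was 3.91, 4.00, 3.81 and 3.71 in WT IRI and 4.41, 4.21, 4.35, 4.25 and 4.39 in CCN2 KO IRI, a log2 difference of 0.46 ± 0.09 (SE, adjusted p = 0.00564). Tgif1, another corepressor, was lower at 4.16, 4.12, 4.25 and 4.97 in WT IRI and 3.11, 3.21, 2.85, 3.03 and 1.43 in CCN2 KO IRI, a log2 difference of −1.65 ± 0.34 (SE, adjusted p = 0.00904). For TGF beta signalling, 8 were called higher and 3 lower with the length trend removed, and higher calls numbered 2 without 33C4, 3 without 33C3, 4 without 33D4 and 5 without 33D2.

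Insulin signalling genes were higher in 8 and lower in 2 of 48 cases. Gys1, glycogen synthase, was 2.90, 3.06, 2.84 and 2.62 in WT IRI and 3.86, 3.58, 3.73, 3.42 and 3.77 in CCN2 KO IRI, a log2 difference of 0.82 ± 0.13 (SE, adjusted p = 0.00349). Of 49 focal adhesion and actin linker genes 7 were higher and 0 lower, with Tns1, tensin, at 7.08, 7.24, 6.86 and 6.65 in WT IRI and 7.78, 7.38, 7.70, 7.59 and 7.96 in CCN2 KO IRI, a log2 difference of 0.73 ± 0.14 (SE, adjusted p = 0.00674). Within the EIF4 group, Eif4e, which binds the messenger RNA cap, was 5.02, 4.75, 4.80 and 5.01 in WT IRI and 4.41, 4.50, 4.44, 4.48 and 4.13 in CCN2 KO IRI, a log2 difference of −0.50 ± 0.09 (SE, adjusted p = 0.00617). The groups were apart for Gys1, Tns1 and Eif4e. Eif4ebp2, which sequesters it, was 4.23, 4.62, 3.97 and 3.74 in WT IRI and 5.29, 4.83, 5.33, 5.00 and 5.73 in CCN2 KO IRI, a log2 difference of 1.10 ± 0.23 (SE, adjusted p = 0.00921), and Eif4ebp1, of like function, was lower by 0.78 (adjusted p = 0.0257). For insulin signalling, 4 were called higher and 2 lower with the length trend removed, and higher calls numbered 3 without 33C1, 33C3, 33C4 or 33D6 and 4 without 33D2 or 33D4. For focal adhesion genes, 5 were called higher and 2 lower with the length trend removed, and higher calls numbered 1 without 33C4 and 2 without 33C3.

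**Figure D4:**
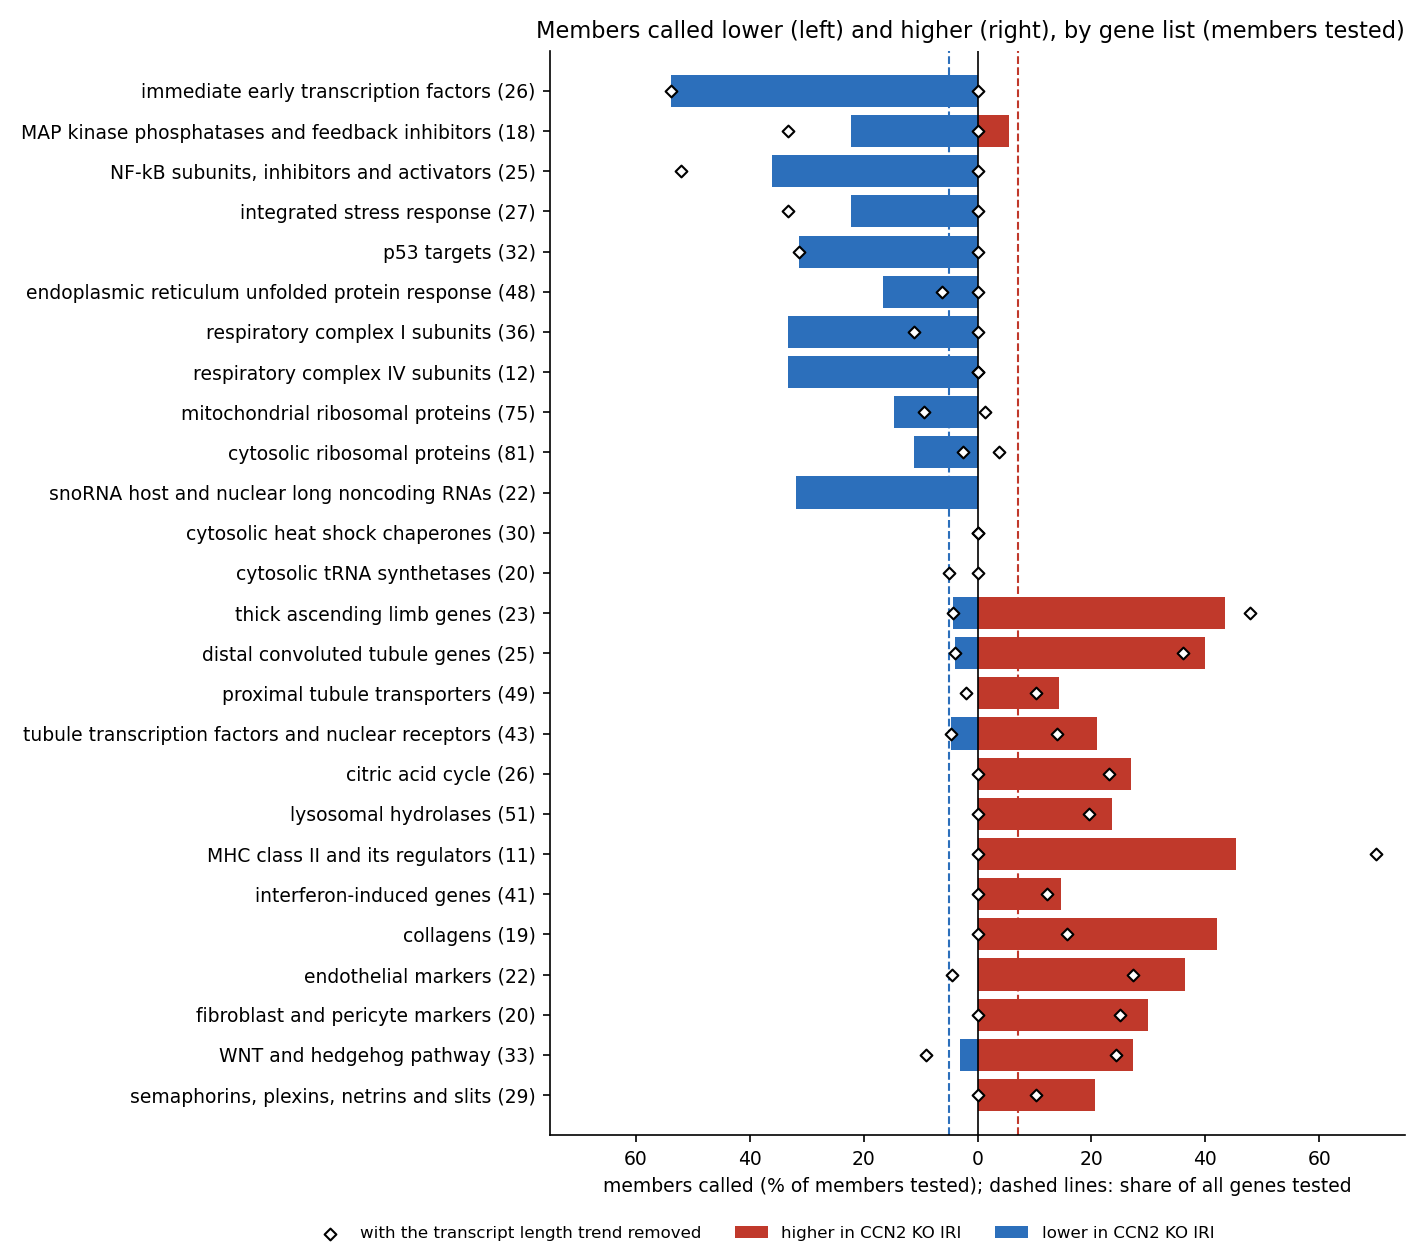
Bars give the percentage of each list's tested members called lower (left, blue) and higher (right, red) in CCN2 KO IRI, dashed lines the same shares over all genes (5.07% and 7.19%), and open diamonds the shares with the length trend removed (coding members, for lists with at least 5). Diamonds lie at or beyond the bar for immediate early factors and at 0 for complex IV.

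Some genes that the study also followed by qPCR or protein, in part in other mice at a later time, varied here in their result. Gadd45a (above) and Bcl2l1, the apoptosis inhibitor BCL-XL, were lower. Bcl2l1 was 6.30, 6.36, 6.10 and 6.13 in WT IRI and 5.88, 5.93, 5.45, 5.89 and 5.18 in CCN2 KO IRI, a log2 difference of −0.55 ± 0.15 (SE, adjusted p = 0.0279). The Gadd45a result differs from the study's qPCR at this same time after reperfusion, which found no reduction in CCN2 KO kidneys. The reason for this difference was not tested. In the other mice at the later time the study reported Gadd45a, BCL-XL, Hmgb1, Hmox1 and Nqo1 as reduced. Hmgb1 ran the other way here, at the earlier time. Hmgb1, a chromatin protein released by dying cells, was 3.72, 3.72, 3.83 and 3.72 in WT IRI and 3.86, 3.97, 4.04, 4.10 and 3.99 in CCN2 KO IRI, a log2 difference of 0.24 ± 0.08 (SE, adjusted p = 0.0486). The Hmgb1 call held in only 8 of 21 alternative settings, with adjusted p up to 0.195, and was lost without any 1 of 33C1, 33C2, 33C3, 33C4, 33D3, 33D4, 33D5 and 33D6. Hmox1, haem oxygenase 1, was 9.38, 9.12, 9.23 and 8.90 in WT IRI and 8.60, 8.67, 7.62, 9.06 and 6.39 in CCN2 KO IRI, and its difference of −1.09 ± 0.42 did not pass (adjusted p = 0.0948). Cdkn1a, the cell cycle inhibitor p21, was 5.16, 4.39, 4.67 and 4.87 in WT IRI and 5.54, 4.32, 3.97, 4.11 and 2.92 in CCN2 KO IRI (adjusted p = 0.467). Havcr1, KIM-1, the marker of injured proximal tubule, was 5.54, 5.14, 5.04 and 5.71 in WT IRI and 5.37, 4.31, 5.87, 5.54 and 3.38 in CCN2 KO IRI (adjusted p = 0.625). The groups overlapped in these last 3 genes, and 33D6 was the lowest kidney in each. Lcn2, Sox9, Nqo1, Gclc, Gclm, Trp53 and H2afx did not pass either, at adjusted p from 0.163 (Trp53) to 0.927 (Gclm).

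Whether the CCN2 KO and WT labels differed more after IRI than after sham surgery was tested as a difference of effects, which 23 genes passed (0.182%). Among the genes named above these were Irgm2 (1.07), Slc27a1 (0.81), Rap2b (−2.45), Ier2 (−1.86), Gpam (1.56), Btg1 (−1.57), Tmem55b (−0.67) and Bsnd (1.61), together with Zc3h4 (0.97), Jarid2 (1.13) and Eif4e (−0.82), where each value is the log2 effect after IRI minus that in sham. Every IRI title begins with 33, while each sham group has 2 titles that begin with 32 and 2 with 33. The median deviation of the immediate early factors was −1.32 and −1.18 in the WT shams of prefix 32 and −0.61 and −0.62 in those of prefix 33. In the CCN2 KO shams it was −0.76 and −1.57 for prefix 32 and −0.91 and −0.85 for prefix 33, where the prefixes overlapped. With the prefix as a term 30 genes passed, all 23 among them. With kidneys of prefix 33 alone, which leaves 2 shams a group, 3 genes passed, of the 23 only Jarid2 (adjusted p = 0.0197) and Tmem88b (adjusted p = 0.0359), and all 23 kept their sign. The count was also 7 without 33C4, 9 without 33A1, 11 without 32A1 or 33C1, 14 without 33B3 or 33C3, 15 without 33D4, 39 without 32B5, 40 without 33D6 and 78 without 33D3. For the other genes a difference after IRI is not shown to differ from that in sham. Gm23134, annotated as a microRNA, was at the floor in all 4 WT IRI kidneys and at 1.64, 2.77, 0.27, 0.71 and 0.47 in CCN2 KO IRI, the only such gene. Poly(A) libraries capture microRNA genes poorly, and its sham means were −1.16 in WT and −2.14 in CCN2 KO.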

How the data were processed

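Cortex RNA of 17 kidneys was measured, with 1 library per kidney, and the 9 IRI kidneys were compared here. The authors sequenced poly(A) RNA from directional libraries with single-end reads, aligned them to GRCm38 with STAR 2.4.2a, counted reads per gene with HTSeq 0.6.1p1, computed RPKM with edgeR, and deposited quantile-normalized log2 RPKM values for 38293 genes. Another 13 columns of the table match no labelled sample and were not used. The study's methods count 1 more CCN2 KO IRI kidney than is analysed here, and whether it is among those columns is not known. Quantile normalization gives every kidney nearly the same distribution, so a shift of all genes could not be seen, and counts, depth and counting intervals cannot be had from these values. The labels do not say whether litters were shared, and p-values measure the spread between kidneys of a group.

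In R 4.3.3 with limma 3.58.1, genes above log2 0 in at least 4 samples were fitted with 1 mean for each of 4 groups over 17 samples, with a prior variance that follows the mean, and p-values were adjusted by Benjamini-Hochberg at 0.05 over the 12608 genes. Single values were compared by two-sided exact permutation tests over kidneys. Gene names, lengths, biotypes and coordinates came from GENCODE M21 on GRCm38, and promoters from RefSeq. The test was also run on simulated data, drawn with the means and spreads of these genes.

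The members and the 90 hand-written gene lists were chosen with earlier results of these data known. Named genes are Ctgf, Gt(ROSA)26Sor, the 30 coding genes of lowest p, up to 6 members of lowest p in each list described, genes at the floor in 1 IRI group only, the 5 highest means and genes the study measured by qPCR or protein. Some genes that this rule names are not reported here. The lists are described by counts and medians, with no test of a list. Alternatives were the filter, a pseudocount of 1, centring, sample weights, the prior variance, the IRI groups alone, each kidney left out and a replicate block. Removal of the transcript length trend (a lowess fit in each kidney), the restriction to coding genes with a length, the title prefix as a term or prefix 33 alone, and the printed TGACGTCA promoters were chosen after seeing the data.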

Additional observations from a re-analysis of the deposited data

Results flagged for a closer look

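Among the 137 genes given with values, the lowest or highest kidney of each IRI group was compared with its neighbours. Of 274 groups of values, 19 had 1 kidney far from the rest by Dixon's criterion, where chance gives about 1 in 20. Kidney 33D6 of CCN2 KO IRI stood apart in 7 of them. It was low in Vmp1 (4.71), Cxcl1 (1.78), Tgif1 (1.43) and Eif4e (4.13) and high in Plxnb2 (6.09), Vdr (6.62) and Slc9a3 (4.12). Each of these lies farther from the WT IRI kidneys than its group does. Kidney 33C4 of WT IRI stood apart in 6. It was low in Ccnd1 (3.44), Kcnj1 (3.57), Scd2 (2.49) and Hexa (2.86) and high in Tgif1 (4.97) and Gclc (8.07).

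Kidney 33C3 was low in Folr2, listed at the floor of −3.32, and in Eif4ebp1 (6.77), and high in Hmgb1 (3.83). Kidney 33D3 was high in Lpin2 (3.51) and low in Atp5a1 (9.04), and 33C2 was high in Cxcl2 (1.05).

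The CCN2 KO effect differed between IRI and sham kidneys in 11 of the genes given, by limma's test of the difference of effects. The difference was negative in Rap2b (−2.45), Ier2 (−1.86), Btg1 (−1.57), Eif4e (−0.82) and Tmem55b (−0.67). It was positive in Bsnd (1.61), Gpam (1.56), Jarid2 (1.13), Irgm2 (1.07), Zc3h4 (0.97) and Slc27a1 (0.81). With kidneys of title prefix 33 alone (2 shams a group) 1 of the 11, Jarid2, passed.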

How the results depend on the processing

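None of the 125 called genes given with values changed sign under the alternatives. Some summaries did. With the length trend removed, chosen after seeing the data, calls turned from more higher to more lower (568 and 604), the median of all genes went from 0.02 to −0.0036, cytosolic ribosomal proteins from 9 lower and 0 higher to 2 and 3, and the heat shock median from 0.05 to −0.03. The tRNA synthetase median went from −0.07 to 0.01 without 33D6. The 1546 calls (907 higher, 639 lower) became 3118 (1753 and 1365) with sample weights, and 420 genes were lower without the filter on low values. With kidneys of prefix 33 alone, also added later, there were 2544 calls (1472 and 1072). Leaving out 1 kidney gave 351 to 1771 calls, 219 to 1036 of them higher and 132 to 735 lower. The difference of effects between IRI and sham, passed by 23 genes, was passed by 231 with sample weights, 48 among coding genes with a length, 38 with a mean above log2 RPKM 1, 14 without the filter, 41 with a pseudocount of 1, 3 with kidneys of prefix 33 alone and 37 with the length trend removed, and by 7 to 78 with 1 kidney left out. Of the 125 called genes given with values, 82 kept their call in every alternative over all kidneys or all but 1. The call was lost by 42 without 33C4, 21 without 33C3, 16 without 33D4, 15 without 33C1 and 15 without 33D6, 10 without the filter and 10 with the length trend removed.

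The same numbers in the titles do not pair the kidneys: deviations from the group means correlated at 0.01, 0.04 and −0.09 in the 3 pairs. A replicate block on these 6 kidneys left 0 calls in total, 0 higher and 0 lower, and the same 6 kidneys without the block also 0. The exact permutation tests cannot go below p = 0.00794 with 5 against 4 kidneys, and leaving out 1 kidney gave p from 0.0179 to 0.0286 for the length tilt and Gt(ROSA)26Sor. Depth is unknown, so low genes carry more error than can be stated, and differences at the floor are understated.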

Other observations

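Noncoding and housekeeping transcripts were not described above. Of 22 host genes of small nucleolar RNAs and nuclear long noncoding RNAs, 7 were lower and 0 higher (median −0.40), 1 lower without 33C4, 2 without 33C3 and 3 without 33D6. Mir22hg was 5.48, 4.98, 5.46 and 5.85 in WT IRI and 4.52, 5.05, 4.69, 4.52 and 4.39 in CCN2 KO IRI. Mir17hg, the host of the miR-17-92 cluster, was 2.45, 2.20, 2.50 and 3.04 against 1.15, 1.55, 1.41, 2.05 and 0.26. Gas5, a host gene whose transcript is degraded during translation, was 4.54, 4.38, 4.75 and 4.95 against 4.17, 3.58, 3.94, 4.29 and 3.48. By annotation, 16 of 425 long noncoding genes were higher (3.76%) and 22 lower (5.18%), against 7.19% and 5.07% over all genes, so the lower share was near that of all genes. Of 263 pseudogenes 2 were higher (0.76%) and 6 lower (2.28%), both below the shares of all genes.

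Coding genes of the X chromosome were called higher in 3.03% and lower in 4.85% of 330 cases, and those of chromosome 9 in 10.6% and 5.07% of 651. Over all coding genes these shares were 7.69% and 5.21%. The X chromosome and chromosome 9 are the extremes of the higher share among the autosomes and X, and their lower shares were near that of all coding genes. Kap, an androgen-regulated proximal tubule gene and one of the highest means, was 14.82, 15.83, 14.51 and 15.03 in WT IRI and 15.03, 14.82, 15.49, 15.49 and 15.03 in CCN2 KO IRI, with overlapping groups. Several kidneys share exact values at this level because quantile normalization assigns the same value to the same rank.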
